A study of Mus musculus with 5 samples.

Results

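The glucocorticoid receptor gene Nr3c1 and 9 genes known as its targets (Fkbp5, Tsc22d3, Sgk1, Zbtb16, Klf9, Cdkn1a, Ddit4, Errfi1 and Hif3a) were followed in mouse retina on an Affymetrix expression array. They were found by gene symbol. The array annotation gave 1 symbol to 34945 of 45101 probe sets, and 35 of these named one of the 10 genes, out of 18193 genes in all. For a gene with several probe sets, the one of highest mean signal was taken. Total RNA came from 3 pools of diabetic retinas and 2 pools of control retinas, with 1 array per pool. Diabetic replicates 1 and 2 each pooled 4 retinas from 2 mice, 5 weeks after diabetes was induced with streptozotocin, a drug that destroys pancreatic beta cells. Diabetic replicate 3 pooled 6 retinas from 3 mice with 3 to 4 weeks of experimentally induced diabetes, for which the labels name no agent. Each control pool held 4 retinas from 2 untreated mice of matched age and normal blood glucose. The labels give no strain, sex or age in weeks. A pool averages its mice, so the spread below is between pools.

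Glucocorticoids, corticosterone in mice, bind a receptor that waits in the cytoplasm in a complex with Hsp90 and its cochaperones. The bound receptor enters the nucleus, where pairs of receptors bind a palindromic DNA element, and other transcription factors can hold it at DNA as well. Fkbp5 and Tsc22d3 are among the targets most often used to read receptor activity. In the retina the receptor is known mainly from Muller glia, and synthetic glucocorticoids are used clinically against diabetic macular oedema.

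The palindromic element was searched for because it is the sequence through which targets of this kind are bound. The letters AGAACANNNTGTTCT, which read the same on both strands, were looked for in RefSeq promoter windows (GRCm38.p6) of 300 bases, 250 before to 50 after each annotated start. Windows were held for 8 of the 10 genes, all but Nr3c1 and Zbtb16, 17 windows in all. One window held the element, that of 1 of the 6 annotated starts of Sgk1, at chr10:21993640-21993939 on the plus strand. Over all genes, 3 of 32851 windows did. The element, in capitals below, lies 189 to 175 bases before that start.
Sgk1 promoter: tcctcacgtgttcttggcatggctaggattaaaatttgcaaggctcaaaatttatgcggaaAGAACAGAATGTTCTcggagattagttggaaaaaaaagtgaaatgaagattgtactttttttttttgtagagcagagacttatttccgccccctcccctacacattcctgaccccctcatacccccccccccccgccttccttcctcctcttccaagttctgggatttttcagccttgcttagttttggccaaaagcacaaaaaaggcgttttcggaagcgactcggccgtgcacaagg
The half-site AGAACA or its reverse complement TGTTCT, which is part of the full element, was in 3 windows of Sgk1 and 1 of Tsc22d3. That is 23.5% of the 17 windows, near the 19% of all windows. The Sgk1 window with the full element is among these. A match is only a run of letters. The search took these exact letters and allowed no mismatch, so a window without a match may still hold a variant of the element. It also says nothing about binding elsewhere near the gene.

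The arrays had been scaled to a common mean, with median signals from 634.6 to 714.7. Rod markers (9 of 10 listed genes measured, Sag among them) summed to signals of 730856 to 808732 in diabetic and 720044 to 825589 in control pools, and all 9 were bright enough to be tested. The 10 Muller glia and astrocyte markers, Glul among them, summed to 293147 to 319305 in diabetic and 291773 to 315543 in control pools. The 10 pigment epithelium markers, Ttr among them, summed to 123989 to 156056 in diabetic and 179437 to 221333 in control pools. In the diabetic mean 10 of 10 were lower and none at 0, where 5248 of the 10916 genes tested were lower. All diabetic pools lay below both controls in 6 of the 9 tested markers, beside 8.15% of all tested genes. The 5 melanosome markers, Dct among them, summed to 2672 to 22144 in diabetic and 4684 to 18348 in control pools, which overlapped. The 13 skeletal muscle markers, Myl1 among them, summed to 93938 in diabetic replicate 3 and 60973 in control replicate 2, against 5992 to 6703 in the other 3 pools. Diabetic replicate 2 had a beta-actin 3' to 5' signal ratio of 4.32 and an 18S ribosomal RNA 3' signal of 11744, against 2.01 to 2.71 and 2447 to 3341 in the others. The part of these differences in the values below was not tested. In whole tissue, fewer cells of a type and less RNA per cell cannot be told apart.

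Between diabetic and control pools, none of the 10 genes passed the test. All 10 were bright enough to be tested, 6 had a higher and 4 a lower mean in diabetic pools, and their log2 differences ran from -0.19 for Tsc22d3 to 0.30 for Hif3a. Levels and differences are on the scale of log2(signal + 120.6), which understates changes of dim genes. The median of the 10 differences was 0.0237 and their median size 0.0548, against 0.0060 and 0.0814 over the 10916 genes tested. With limma and Benjamini-Hochberg adjustment over these genes, 0 of 10 had an adjusted p under 0.05, where 0% of all tested genes did, and each had an adjusted p of 0.9995. At an unadjusted p under 0.05 there were 0 of 10, beside 3.39% of all tested genes. In 1 of the 10, Hif3a, every diabetic pool lay above both control pools, beside 9.99% of all tested genes, and in none did every diabetic pool lie below them, beside 8.15%.

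**Figure D1:**
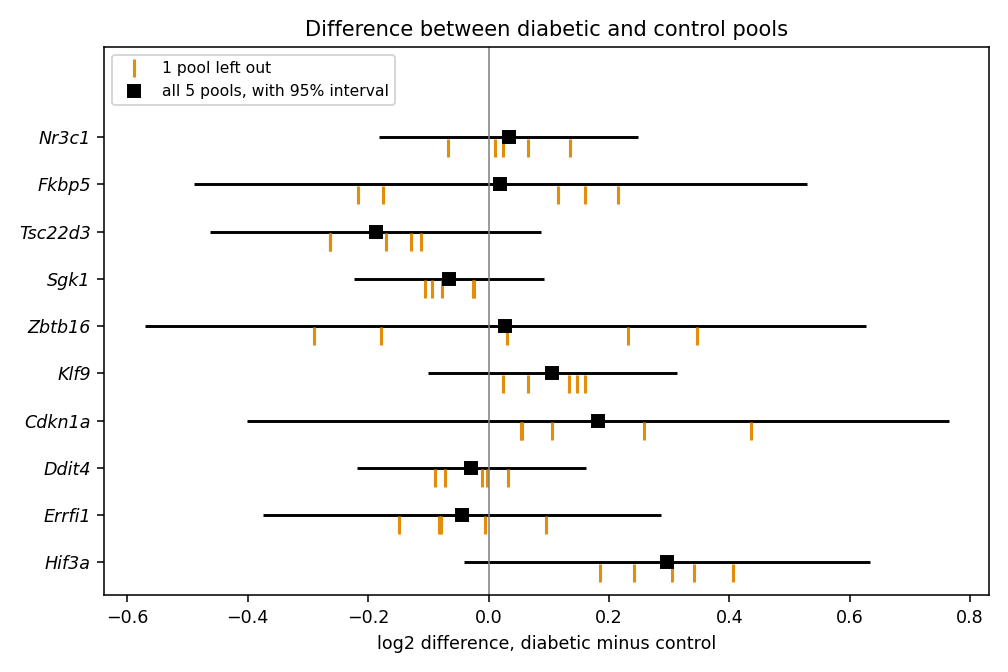
Log2 difference, diabetic minus control, of the 10 genes (squares, all 5 pools) with 95% intervals from limma (lines), and the difference with 1 pool left out (orange ticks). All 10 intervals include 0, from the narrowest, Sgk1 at -0.22 to 0.09, to the widest, Zbtb16 at -0.57 to 0.63.

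Nr3c1, which encodes the receptor itself, had signals of 10692, 10493 and 9893 in diabetic replicates 1 to 3 and of 9421 and 10856 in control replicates 1 and 2. All 3 diabetic pools lay between the controls. The level was 13.35 ± 0.06 in the diabetic (SD, n = 3) and 13.32 ± 0.14 in the control pools (SD, n = 2), and the log2 difference was 0.0335 (SE 0.09, 95% interval -0.18 to 0.25). The other tested probe sets of Nr3c1, 1421867_at and 1457635_s_at, differed by -0.19 (SE 0.13) and -0.25 (SE 0.14). In 1457635_s_at the 3 diabetic pools, at signals of 4325, 5310 and 5967, lay below both controls, at 6069 and 6265.

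Fkbp5 encodes a cochaperone that lowers the receptor's affinity for hormone and is itself induced by it, a short feedback loop. Its signals were 3905, 6669 and 4168 in diabetic replicates 1 to 3 and 5406 and 4098 in control replicates 1 and 2. Diabetic replicate 2 and control replicate 1 were the high pools, so the groups overlapped. The level was 12.26 ± 0.41 in the diabetic (SD, n = 3) and 12.24 ± 0.28 in the control pools (SD, n = 2). The log2 difference of 0.0195 (SE 0.22) was far inside this spread, with a 95% interval of -0.49 to 0.53. The difference was -0.22 without diabetic replicate 2, -0.18 without control replicate 2 and 0.21 without control replicate 1. Its second tested probe set, 1448231_at, put the diabetic pools in another order, with signals of 1235, 761.4 and 1580 in diabetic and 1162 and 905.9 in control pools. There diabetic replicate 2 was the lowest of all 5.

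Tsc22d3 encodes the leucine zipper protein GILZ, which carries part of the anti-inflammatory action of glucocorticoids. Its signals were 3702, 3486 and 4230 in diabetic replicates 1 to 3, against 4111 and 4576 in control replicates 1 and 2. Diabetic replicates 1 and 2 lay below both controls and diabetic replicate 3 between them. The level was 11.93 ± 0.14 in the diabetic (SD, n = 3) and 12.12 ± 0.11 in the control pools (SD, n = 2), a log2 difference of -0.19 (SE 0.12, 95% interval -0.46 to 0.09). Its other tested probe sets ran the other way, 1425281_a_at by 0.19 and 1425557_x_at by 0.16, so the gene has no single direction here.

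Sgk1 encodes a kinase that raises the activity of ion channels and transporters, and is the gene with the promoter element shown above. Its single probe set gave signals of 60331, 66400 and 64911 in diabetic replicates 1 to 3, against 68658 and 64994 in control replicates 1 and 2. The 5 pools lay within 1.14 times of each other. The level was 15.96 ± 0.07 in the diabetic (SD, n = 3) and 16.03 ± 0.06 in the control pools (SD, n = 2). The log2 difference of -0.0656 (SE 0.07) had the narrowest interval of the 10, -0.22 to 0.09.

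Zbtb16 encodes the zinc finger repressor PLZF. Its signals were 2600, 1419 and 1917 in diabetic replicates 1 to 3 and 2379 and 1487 in control replicates 1 and 2. Diabetic replicate 1 and control replicate 1 were high, and diabetic replicate 2 and control replicate 2 low. The level was 10.997 ± 0.41 in the diabetic (SD, n = 3) and 10.97 ± 0.45 in the control pools (SD, n = 2), a log2 difference of 0.0279 (SE 0.26). Leaving out diabetic replicate 1 gave -0.18, leaving out control replicate 2 gave -0.29, and leaving out control replicate 1 gave 0.35.

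Klf9 encodes a Kruppel-like zinc finger factor that responds to glucocorticoid and thyroid hormone in neural tissue. The probe set taken for it, 1456341_a_at, had signals of 44606, 51958 and 43014 in diabetic replicates 1 to 3 and 41855 and 44323 in control replicates 1 and 2. Diabetic replicate 2 was the highest pool and the groups overlapped. The level was 15.50 ± 0.14 in the diabetic (SD, n = 3) and 15.40 ± 0.06 in the control pools (SD, n = 2), a log2 difference of 0.11 (SE 0.09, 95% interval -0.10 to 0.31). One of its 6 tested probe sets stood apart. In 1422264_s_at the diabetic signals were 1681, 1704 and 1741 and the control signals 3694 and 2147. The diabetic pools were nearly equal there, and the spread lay between the controls. Its log2 difference was -0.69 (SE 0.21, limma unadjusted p = 0.0124, adjusted p = 0.9999), and leaving out control replicate 1 gave -0.31 and leaving out control replicate 2 gave -1.06. The other 5 tested Klf9 probe sets differed by between -0.0194 and 0.12.

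**Figure D2:**
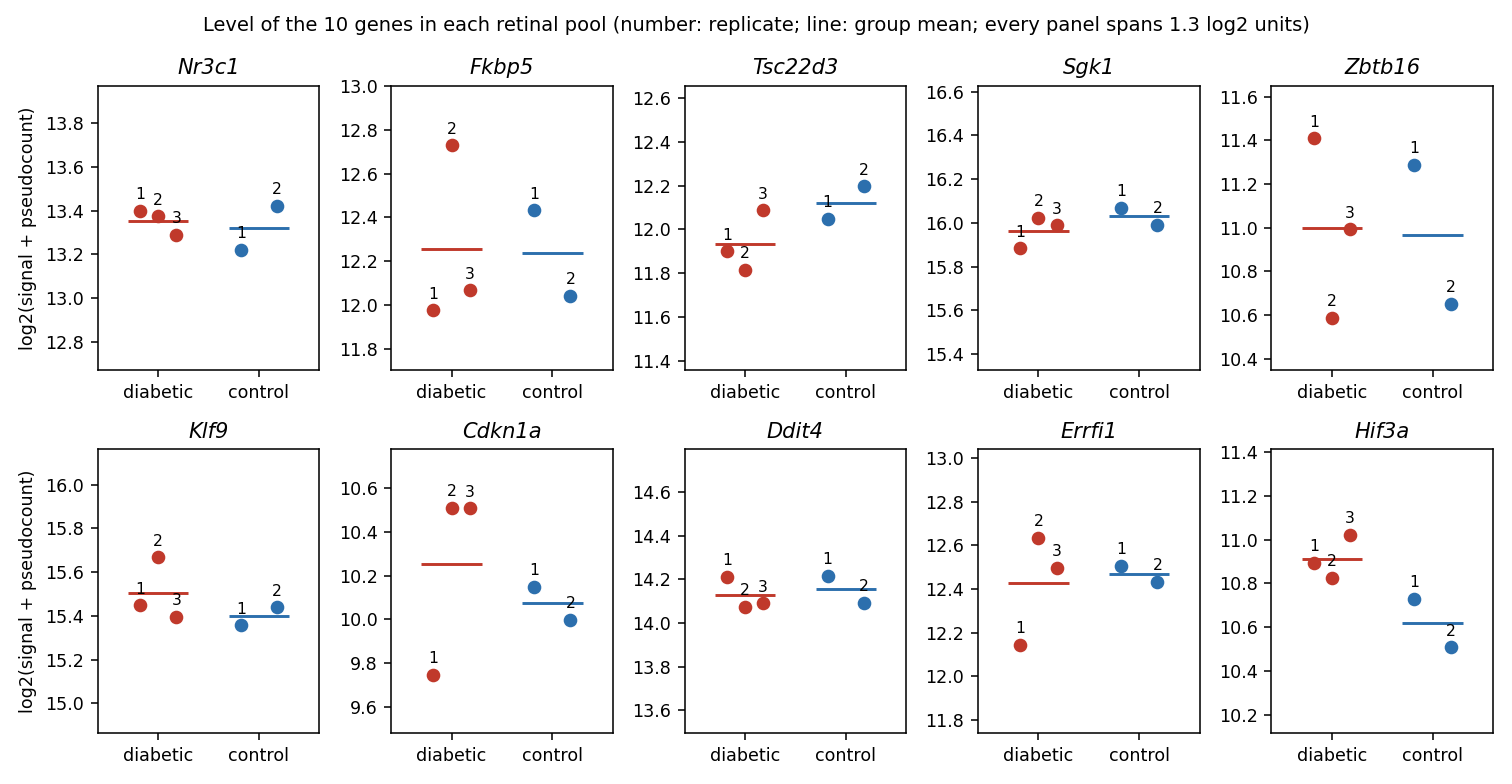
Level of each of the 10 genes, log2(signal + pseudocount), in 3 diabetic (red, left) and 2 control pools (blue, right), with group means as lines and replicate numbers above the points. Every panel spans the same height, so the wide scatter of Fkbp5, Zbtb16 and Cdkn1a can be set against the narrow one of Nr3c1, Sgk1 and Ddit4; only Hif3a has groups that do not overlap.

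Cdkn1a encodes the cell cycle inhibitor p21, a target of p53 as well as of the glucocorticoid receptor. Its signals were 738.9, 1339 and 1337 in diabetic replicates 1 to 3 and 1016 and 901.8 in control replicates 1 and 2. Diabetic replicates 2 and 3 lay above both controls and diabetic replicate 1 below them. The level was 10.26 ± 0.44 in the diabetic (SD, n = 3) and 10.07 ± 0.11 in the control pools (SD, n = 2). The log2 difference was 0.18 (SE 0.26, 95% interval -0.40 to 0.76). Dropping diabetic replicate 1 raised it to 0.44, and dropping control replicate 1 to 0.26. It fell to 0.0538 when diabetic replicate 2 was dropped, to 0.055 for diabetic replicate 3 and to 0.10 for control replicate 2. A dimmer probe set, 1421679_a_at, which was below the filter and not tested, also had its lowest value in diabetic replicate 1, with signals of 40, 443.1 and 467.9 in diabetic and 68.5 and 323.4 in control pools.

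Ddit4 encodes REDD1, an inhibitor of the growth kinase complex mTORC1 that is also induced by low oxygen. Its signals were 18868, 17146 and 17319 in diabetic replicates 1 to 3 and 18905 and 17362 in control replicates 1 and 2, the narrowest spread of the 10 genes. The log2 difference was -0.0285 (SE 0.08, 95% interval -0.22 to 0.16).

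Errfi1 encodes MIG6, a feedback inhibitor of the epidermal growth factor receptor. Its signals were 4409, 6239 and 5658 in diabetic replicates 1 to 3 and 5702 and 5404 in control replicates 1 and 2. Diabetic replicate 1 was the lowest and diabetic replicate 2 the highest pool. The level was 12.43 ± 0.25 in the diabetic (SD, n = 3) and 12.47 ± 0.05 in the control pools (SD, n = 2), a log2 difference of -0.0441 (SE 0.14) that was 0.0961 without diabetic replicate 1. In its other probe set, 1419816_s_at, the signals were 1372, 945.7 and 1357 in diabetic and 1683 and 1166 in control pools. Diabetic replicate 2 was the lowest pool there, and the log2 difference was -0.20 (SE 0.23).

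Hif3a encodes a relative of the hypoxia-inducible factors, some forms of which restrain the other factors. It was the gene with the largest difference of the 10. Its signals were 1785, 1693 and 1959 in diabetic replicates 1 to 3, against 1576 and 1335 in control replicates 1 and 2. All 3 diabetic pools lay above both controls. The level was 10.91 ± 0.10 in the diabetic (SD, n = 3) and 10.62 ± 0.16 in the control pools (SD, n = 2), a log2 difference of 0.30 (SE 0.15, 95% interval -0.04 to 0.63, limma unadjusted p = 0.0779, adjusted p = 0.9995). With single pools left out it lay between 0.19 and 0.41. Its second tested probe set, 1425429_s_at, had signals of 752.2, 484.4 and 804.0 in diabetic and 527.1 and 736.1 in control pools, so the groups overlapped there and the difference was 0.0801 (SE 0.26).

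The 10 genes differed widely in their spread over the pools. Zbtb16 ranged over 0.82 log2 units across the 5 pools, Cdkn1a over 0.76 and Fkbp5 over 0.75, where 95.3%, 94.0% and 93.6% of tested genes ranged less. Ddit4 ranged over 0.14, Sgk1 over 0.19 and Nr3c1 over 0.20, and only 8.18%, 17.6% and 21.2% of tested genes ranged less. Ddit4, Sgk1 and Nr3c1 were also brighter than Zbtb16, Cdkn1a and Fkbp5, and the shares were not adjusted for level. The median range was 0.44 over the 10 genes and 0.32 over all tested genes. Diabetic replicate 2, the pool with the high 18S signal, was the highest pool for Fkbp5, Klf9, Cdkn1a and Errfi1 and the lowest for Tsc22d3, Zbtb16 and Ddit4, beside 32.8% and 19.5% of all tested genes. Diabetic replicate 1 was the highest for Zbtb16 and the lowest for Fkbp5, Sgk1, Cdkn1a and Errfi1, beside 19.4% and 24.3% of all tested genes. The targets therefore did not share 1 order of the pools. The tested genes whose profile was most like that of Zbtb16, the gene of widest range, were Lrpprc, Meig1 and Sgtb. Their root mean square differences from it over the 5 centred log2 values were 0.08, 0.10 and 0.10, where the median over all tested genes was 0.36. These 3 were chosen as the smallest of all, so values below the median follow from the choice and show no shared regulation.

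The probe sets of 1 gene did not always point the same way. Of the 35 probe sets, 22 passed the filter and 13 did not, and of the 22 tested 13 had a higher and 9 a lower mean in diabetic pools. In 3 of the 6 genes with more than 1 tested probe set (Nr3c1, Tsc22d3 and Klf9) the probe sets pointed both ways. Some of these differences were smaller than their SE, such as -0.0194 (SE 0.10) for 1428289_at of Klf9, where either sign can arise. Over all 20967 tested probe sets 0% had an adjusted p under 0.05, and 0 of the 22 did. At an unadjusted p under 0.05 there was 1 of 22, the Klf9 probe set above, beside 2.76% of all tested probe sets. In 2 of the 22, 1 each of Tsc22d3 and Hif3a, all diabetic pools lay above both controls, beside 8.58% of all tested probe sets. In 2, 1 each of Nr3c1 and Klf9, all lay below, beside 8.63%. The suffix _s_at or _x_at marks probes that can also bind other transcripts, which applies to 3 of these 4, and the files do not say which isoform each probe set reads. Diabetic replicate 2 was the highest pool in 8 and the lowest in 8 of the 22, beside 26.1% and 27.7% of all tested probe sets. For Fkbp5, Errfi1, Klf9 and Tsc22d3 it was highest in 1 or more of the gene's tested probe sets and lowest in at least 1 other, and this pool also had the beta-actin ratio of 4.32. The part of RNA quality in this was not tested. Among the probe sets below the filter, 1447736_at of Fkbp5 had signals of 8.4, 15.3 and 21.8 in diabetic and 127.5 and 96.4 in control pools, all at or near the pseudocount of 120.6 or under it.

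**Figure D3:**
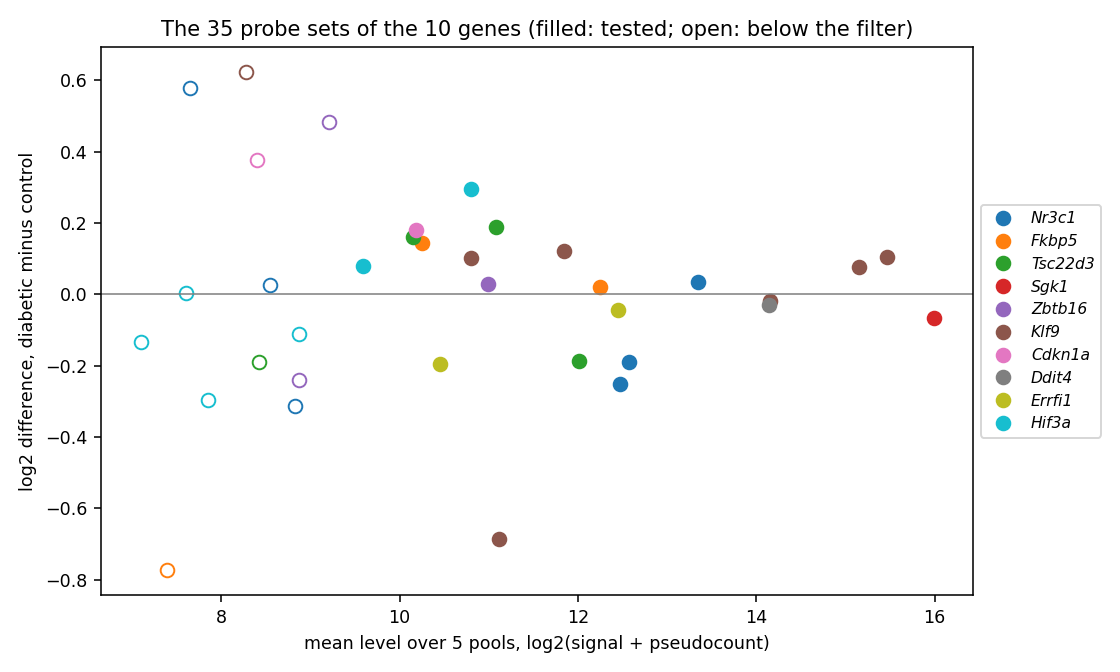
Log2 difference, diabetic minus control, of the 35 probe sets of the 10 genes (y) against their mean level over the 5 pools, log2(signal + pseudocount) (x), with tested probe sets filled and those below the filter open. Above a level of 12 every probe set lies between -0.25 and 0.11, and differences larger than the 0.30 of Hif3a belong to open points and to 1 filled point of Klf9 at -0.69.

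The rest of the pathway was read from lists of genes by role, and no gene of any list passed the adjusted threshold. Of the 15 listed chaperones and cochaperones that fold and release the receptor, 12 were tested, 5 higher and 7 lower in diabetic pools, with a median log2 difference of -0.0316. The 2 of smallest p were Bag1, an Hsp70 cochaperone, at 0.22 (SE 0.12), and Hspa8, the constitutive Hsp70, at 0.14 (SE 0.09). Hspa8 was at 0.0019 without control replicate 1 and at 0.27 without control replicate 2, and Bag1 at 0.14 without control replicate 1. Of 15 coregulators that the receptor recruits at DNA, 13 were tested, 7 higher and 6 lower, with a median of 0.0360. The p160 coactivator genes Ncoa2 and Ncoa1 had the smallest p. Ncoa2 had signals of 23157, 25566 and 26204 in diabetic and 21468 and 21587 in control pools, a log2 difference of 0.21 (SE 0.08). Ncoa1 had signals of 24804, 27070 and 23768 in diabetic and 21366 and 22667 in control pools, a difference of 0.19 (SE 0.08) that was 0.0035 with the mean over its probe sets. In both, every diabetic pool lay above both controls, beside 9.99% of all tested genes. Both were picked for a small p, which favours groups that do not overlap. Their unadjusted p of 0.0279 and 0.0447 gave an adjusted p of 0.9995 in limma.

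Of 13 genes of ligand metabolism and steroid receptors, 11 had a probe set with 1 symbol and 3 were bright enough to be tested, all 3 higher in the diabetic mean (median 0.10). Pgr, the progesterone receptor, differed by 0.17 (SE 0.18) and Abcb1a, a transporter that exports steroids at blood barriers, by 0.10 (SE 0.18). Without control replicate 2 they were at 0.0058 and -0.0288, and without control replicate 1 at 0.33 and 0.23. Nr3c2, the mineralocorticoid receptor, which also binds corticosterone, differed by 0.0053 (95% interval -0.38 to 0.39), and was named outside the rule. Of 35 other glucocorticoid-responsive genes, 23 were tested, 13 higher and 10 lower, with a median of 0.0187. Fam107a, a stress-responsive actin regulator, had the smallest p of this list. Its signals were 4509, 5429 and 3429 in diabetic replicates 1 to 3, against 3041 and 2992 in control replicates 1 and 2. Every diabetic pool lay above both controls, beside 9.99% of all tested genes. The log2 difference was 0.52 (SE 0.17, limma unadjusted p = 0.0166, adjusted p = 0.9995). Arrdc3, an arrestin-domain protein, differed by -0.25 (SE 0.09), with signals of 11480, 11336 and 10604 in diabetic and 13954 and 12529 in control pools. There every diabetic pool lay below both controls, beside 8.15% of all tested genes. Fam107a and Arrdc3 were likewise picked for a small p, which favours groups that do not overlap.

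Among 16 family relatives of the 10 genes, such as other Sgk, Tsc22d, Klf and hypoxia-inducible factor genes, 15 were tested, 5 higher and 10 lower, with a median of -0.0480. Arnt, the partner subunit of the hypoxia-inducible factors, differed by -0.55 (SE 0.34) and was lowest in diabetic replicate 3, and Klf15 differed by -0.39 (SE 0.27). Without diabetic replicate 3 the difference of Arnt was -0.16 and that of Klf15 -0.18. Of 12 p53 target genes, which share Cdkn1a's other regulator, 9 were tested, 5 higher and 4 lower, with a median of 0.0088. Zmat3, an RNA-binding protein, differed by 0.50 (SE 0.12), and Perp, a desmosome protein, by -0.58 (SE 0.21). The 2 genes of smallest p thus pointed in opposite directions. Every diabetic pool lay above both controls for Zmat3 and below both for Perp, beside 9.99% and 8.15% of all tested genes. Both genes were picked for a small p, which favours groups that do not overlap. In limma their unadjusted p of 0.0027 and 0.0255 gave an adjusted p of 0.9995. Of 12 genes of the mTORC1 brake and the Sgk1 pathway, 11 were tested, 8 higher and 3 lower, with a median of 0.0338. Akt1s1 and Rptor, subunits of mTORC1, differed by 0.14 (SE 0.13) and 0.13 (SE 0.09). For Rptor every diabetic pool lay above both controls, beside 9.99% of all tested genes, and for Akt1s1 the groups overlapped. Rptor, also picked for a small p within its list, had a limma unadjusted p of 0.20 and an adjusted p of 0.9995.

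**Figure D4:**
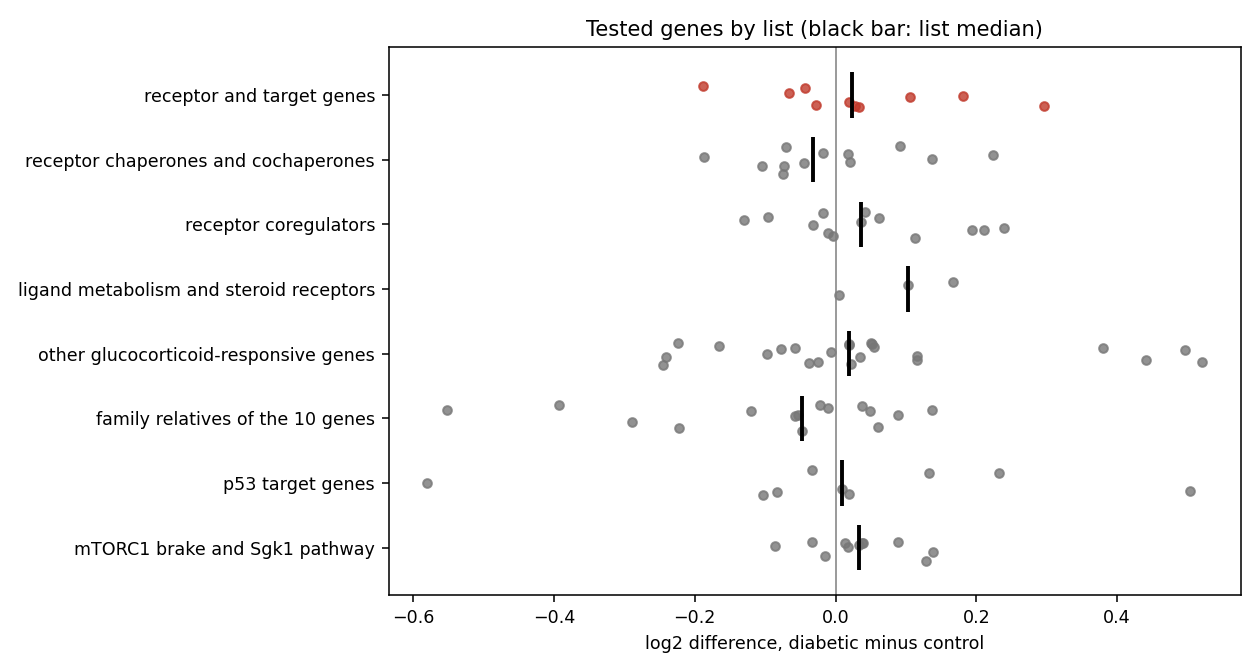
Log2 difference, diabetic minus control, of the tested genes of each list (points), with the list median as a black bar; the vertical scatter within a row only separates the points. All 8 medians lie between -0.0480 and 0.10, and no gene shown passed the adjusted threshold.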

How the data were processed

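The deposited table gives 1 intensity per probe set and array on a linear scale, from the values. The 2% trimmed mean was 2500 in every array, which global scaling before deposit would give. Neither labels nor file name the summarization software, and how background was removed from dim signals is therefore unknown. Symbols came from the platform annotation and were brought up to date by Entrez ID with RefSeq's GRCm38.p6 gene table, where the ID was found for 34741 of 34945.

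The analysis used log2(signal + 120.6), where the pseudocount is the 20th percentile of the table. The probe set of highest mean stood for a gene, the upper 60% of genes by mean were tested, and diabetic was compared with control using limma (lmFit, and eBayes with a trend, 3 residual degrees of freedom) with Benjamini-Hochberg adjustment at 0.05. A separate fit over probe sets used the same filter. The fit was tested on simulated data. The number of arrays limits the precision, and labels do not say whether mice of different pools shared a litter or a day.

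The 10 genes, the 7 pathway lists and the alternatives were chosen with earlier results of these data known, so no list was tested as a set and no p was adjusted over a list. By rule, the text names the 10 genes, the 2 genes of smallest p per list, the 3 genes most like the gene of widest range, and the gene of highest signal in each marker list quoted. The promoter search and the probe sets singled out were chosen after values were seen. R 4.3.3, limma 3.58.1 and matplotlib 3.10.9 were used.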

Additional observations from a re-analysis of the deposited data

Results flagged for a closer look

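Some of the array's own control probe sets, which enter no gene comparison, gave values above both control arrays in diabetic replicates 2 and 3. The beta-actin 3' to 5' ratio was 2.01, 4.32 and 2.43 in diabetic replicates 1 to 3, against 2.52 and 2.71 in control replicates 1 and 2. The Gapdh 3' to 5' ratio was 0.784, 0.9015 and 0.838 in diabetic replicates 1 to 3, against 0.822 and 0.811 in control replicates 1 and 2. The 18S ribosomal RNA 3' signal was 2447, 11744 and 3341 in diabetic replicates 1 to 3, against 2940 and 2993 in control replicates 1 and 2. Without diabetic replicate 2 the log2 difference of Fkbp5 was -0.22, against 0.0195 with all pools.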

How the results depend on the processing

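Under the 16 alternatives, limma put 0 of the 10 genes past the adjusted threshold of 0.05, with a smallest adjusted p of 0.852. The median of the 10 differences, 0.0237, was -0.0285 over the 7 genes among the upper 40% by mean and -0.0758 without both pools of high skeletal muscle signal, and lay between -0.0857 (without control replicate 2) and 0.0533 with single pools left out. The count of all genes past the threshold, 0, was 2 with a replicate block, 2 without both muscle pools and 0 to 1 with single pools left out. That of probe sets was 7 with the block and 0 to 3 with single pools left out, none of the 10 genes. The genes called, named after their values were seen, were Rgr and Spc25 with the block, Npl and Spc25 without both muscle pools, Prss22 without diabetic replicate 2 and Spc25 without diabetic replicate 3. The sign of Tsc22d3, Sgk1 and Klf9 held under all 16 alternatives. Some of these, such as eBayes without a trend or another filter, left the differences of these genes unchanged by construction. That of Hif3a held wherever it was tested. With the upper 40% by mean, and with the mean over probe sets, Hif3a fell below the filter and was not tested. The mean over probe sets took in every probe set with 1 symbol for the gene, also those below the filter. With it Nr3c1 was at -0.0192, Fkbp5 at -0.20, Tsc22d3 at -0.0072, Ncoa1 at 0.0035, Hspa8 at -0.0528 and Akt1s1 at -0.0798. For Fkbp5 the tested probe sets were at 0.0195 and 0.14, and the dim 1447736_at at -0.77. For Nr3c1 the 3 tested were at 0.0335, -0.19 and -0.25, and the 3 dim ones at -0.31, 0.0261 and 0.58. Without both muscle pools Fkbp5 was at -0.0801, Zbtb16 at -0.29, Cdkn1a at -0.0216, Pgr at -0.0341 and Arnt at 0.0638. Fkbp5 was at -0.0879 with array weights, and Ddit4 at 0.0148 with arrays centred on medians. With single pools left out, Nr3c1 lay between -0.0675 and 0.13, Fkbp5 between -0.22 and 0.21, Zbtb16 between -0.29 and 0.35, Ddit4 between -0.0894 and 0.0325, Errfi1 between -0.15 and 0.0961, Hspa8 between 0.0019 and 0.27, Pgr between 0.0058 and 0.33 and Abcb1a between -0.0288 and 0.23. The median of each pathway list except that of the mTORC1 brake and Sgk1 pathway changed sign with at least 1 single pool left out. The cause of these changes was not tested. Fits without a control replicate, or without both muscle pools, leave 1 control, which is assumed to vary like the other pools. Deviations from group means correlated across genes at 0.131 between the pools numbered 1 and at -0.141 between those numbered 2. The 2 controls deviate from their mean by equal and opposite amounts, so diabetic replicate 2 was at 0.141 with control replicate 1. The largest value was 0.271, between diabetic replicate 3 and control replicate 2, the muscle pools. Such values cannot decide a pairing. The replicate numbers were not taken to pair the samples and the block was not used for the results. Diabetic replicate 3 has no control of its number, so the block gave the same differences as leaving that pool out. These 2 alternatives are therefore not separate checks of a difference. Signals of dim probe sets limit what can be read from them, since background correction is unknown.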
